A study of Rattus norvegicus with 6 samples.

Results

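Gene expression in Amy, a rat cell line from an esophageal tumor induced by reflux (stomach and gut contents flowing back up), was compared with a pool of normal rat esophageal cells. The pool was an equal mixture of 2 normal esophageal cell lines, written here as the normal pool. Amy and the pool were hybridized together on 2 of the series' 6 arrays of spotted cDNA, with the dyes Cy3 and Cy5 exchanged between the arrays. The other 4 arrays set JA and JB, also cell lines from reflux-induced esophageal tumors, against the same pool. Each tumor line is 1 sample, and the labels give no strain, passage or treatment for any line. All 3158 genes with a name on the array were described, of 3158 named genes in all; a gene's value was the mean log2 ratio over its spots on each Amy array. A ratio above 0 is written as higher in Amy. That direction is likely rather than settled, since it rests on the order of the names in the array titles, and turning it would exchange higher and lower for every gene. The base of the logarithm was not stated and was taken as 2, so that a value of 1 is a 2-fold difference.

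The squamous lining of the esophagus rests on a connective tissue of fibroblasts, vessels and immune cells, with muscle around it. Chronic reflux injures that lining, and tumors that follow it can be squamous or glandular. A cell line holds only the cells of a tissue that grew in culture.

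A gene was counted as changed when it stood at least 2-fold from the pool, in the same direction, on both Amy arrays. Of the 3158 named genes, 163 (5.16%) were at least 2-fold higher and 432 (13.7%) at least 2-fold lower, together 595 (18.8%). The 2 arrays are technical repeats of 1 line, so these counts carry no test and no error between lines. The 2 arrays gave 2708 genes (85.8%) the same sign, 1215 positive and 1493 negative, and 450 genes opposite signs. Values of the arrays correlated across genes at 0.924, where genes are not independent replicates, and differed by a median of 0.215. In 105 genes (3.32%) they differed by more than 1. The lower side held the wider spread: 95 genes had a mean of -3 or below and 24 a mean of -5 or below, against 6 genes at 3 or above. No spot intensities were used, so a very large ratio cannot be told from one that a dim channel sets. In the account below, the value with Amy in Cy3 comes first and the value with Amy in Cy5 second.

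**Figure D1:**
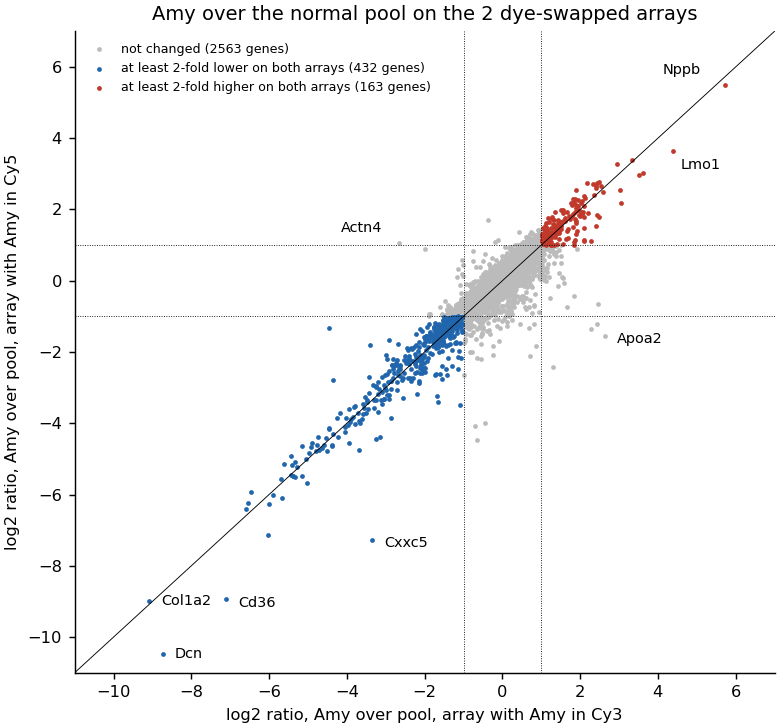
Log2 ratio of Amy over the normal pool for each of the 3158 named genes, with Amy in Cy3 on the x axis and Amy in Cy5 on the y axis; dotted lines mark a 2-fold difference and the solid line marks equal values. Coloured points are the 163 genes at least 2-fold higher and the 432 at least 2-fold lower on both arrays, and the labelled points Actn4 and Apoa2 have opposite signs on the 2 arrays.

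Nppb, which encodes the precursor of B-type natriuretic peptide, a hormone known from heart muscle, had the highest ratio of any named gene. Its log2 ratios were 5.73 and 5.49 in Amy, 6.51 and 6.05 in JA, and 6.43 and 5.84 in JB. All 6 values lay far above the pool, with those of Amy the lowest within each dye orientation. The stretch of the Nppb promoter before and just after its start (chr5:163699858-163700027, plus strand, RefSeq, GRCr8) is shown because the rat gene is known for elements that bind TEAD and GATA factors close to its start. Capitals mark CATTCC and GATAA, the core letters of those elements, on either strand.
Nppb promoter: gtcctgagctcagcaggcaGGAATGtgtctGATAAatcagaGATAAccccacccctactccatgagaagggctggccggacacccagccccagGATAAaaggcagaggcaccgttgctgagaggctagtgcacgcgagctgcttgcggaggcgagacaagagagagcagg
This stretch held CATTCC once, read from the opposite strand, and GATAA 3 times. Over windows of 250 bases before to 50 after the start of all annotated rat genes, 14.2% held CATTCC, 26.5% held GATAA and 4.11% held both. A match describes the letters and does not show binding.

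Among the 15 highest genes, Plk1, Cdk1, Cdc20 and Ccne1 act in cell division and are described with that group. Lmo1, a transcriptional cofactor known as an oncogene of T-cell leukemia, gave 4.40 and 3.64. Bpnt1, a phosphatase of sulfate and nucleotide metabolism, gave 3.61 and 3.02, against 5.35 and 3.90 in JA and 5.24 and 4.86 in JB. Tspan8, a tetraspanin of the surface of gastrointestinal epithelium, gave 3.51 and 2.96. Arpc1b, a subunit of the complex that branches actin filaments, gave 2.96 and 3.28. Penk, the precursor of the enkephalin opioid peptides, gave 2.32 and 2.73 in Amy, below the values of 2.67 and 3.19 in JA and 3.20 and 3.66 in JB. The list of peptide hormones and their receptors as a whole did not lean one way: besides Nppb and Penk, 12 of its 15 measured members stayed within 2-fold on at least 1 array and the receptor Lhcgr was lower. Slc1a3, a glutamate transporter known from astrocytes, gave 3.04 and 2.17, and was the 1 brain marker among 14 that was at least 2-fold higher. Nup93, a structural protein of the nuclear pore, gave 2.59 and 2.48.

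**Figure D2:**
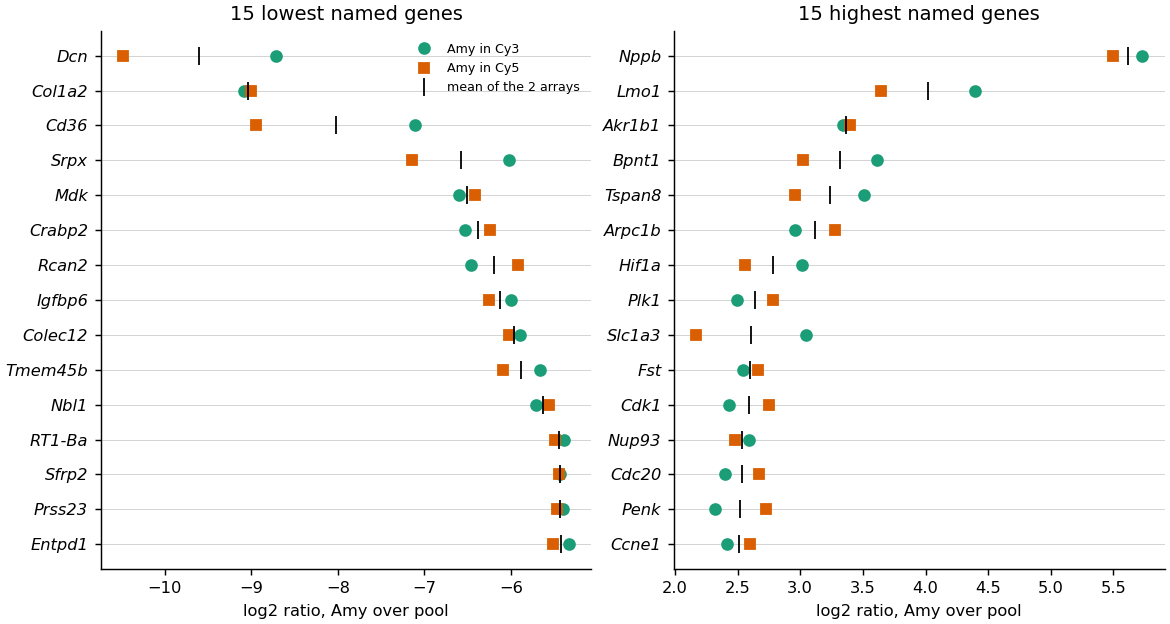
Log2 ratios of Amy over the normal pool for the 15 named genes with the lowest mean (left) and the 15 with the highest mean (right) among changed genes; circles are the array with Amy in Cy3, squares the array with Amy in Cy5, and the bar is their mean. The lowest gene, Dcn, lies at -8.72 and -10.48 and the highest, Nppb, at 5.73 and 5.49, so the left axis runs over larger ratios than the right.

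Genes that drive cells through division were among the few groups that stood mostly on the higher side. Of 12 measured cyclins, cyclin-dependent kinases and their partners, 5 (41.7%) were at least 2-fold higher and 1 (8.33%) was lower, with a list median of 0.80. Of 10 measured genes of mitosis, 5 (50%) were higher and none lower, with a median of 1.09. All named genes had a median of -0.09, with 5.16% higher and 13.7% lower. Plk1, the kinase that drives entry into mitosis, gave 2.49 and 2.78. Cdk1, the main mitotic cyclin-dependent kinase, gave 2.43 and 2.75, and its 2 clones agreed at 2.54 and 2.64. Cdc20, which activates the ubiquitin ligase that starts chromosome separation, gave 2.40 and 2.67. These genes were the highest of the group and act from the entry into mitosis to its exit. Cyclin E1 (Ccne1), which acts with Cdk2 at the start of DNA replication, gave 2.42 and 2.60. The D-type cyclins Ccnd1 (1.27 and 1.73) and Ccnd2 (1.51 and 1.55) and their kinase Cdk4 (1.32 and 1.57) were higher too, whereas Ccnd3 reached only 0.41 and 0.88. Incenp, which anchors Aurora B at centromeres, gave 2.27 and 1.13. Its arrays differed by more than 1, as they did in JA (3.08 and 0.75) and JB (3.03 and 0.73), so its size is uncertain. Pttg1, the securin that holds back chromosome separation, gave 1.24 and 1.47. Stmn1, which destabilizes microtubules, gave 1.08 and 1.15.

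Other mitotic genes did not stand with these. Aurkb, the Aurora B kinase itself, gave -0.68 and -0.42, and the spindle checkpoint gene Mad2l1 gave 0.22 and 0.72. Ccnb2, cyclin B2, was the 1 cyclin counted as lower, at -1.11 and -1.97, but its 2 clones differed, at -3.09 and 0.00. Cdkn1b, the inhibitor p27, stayed near the pool at -0.29 and -0.25. Of 15 measured genes of DNA replication and repair, 4 (26.7%) were higher and none lower, against 5.16% and 13.7% of all named genes. The flap nuclease Fen1 gave 1.81 and 1.5, and Pola1, the catalytic subunit of the polymerase that makes primers for new DNA strands, gave 1.04 and 1.18. The clamp loader subunits Rfc2 (1.07 and 1.45) and Rfc4 (1.17 and 1.37) were higher, whereas Rfc1 gave -0.50 and -0.19 and the clamp itself, Pcna, gave 0.49 and 0.54. The median of this list was 0.10, so most of its members lay near the pool.

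Promoters of late cell-cycle genes are known to carry a CCAAT box, which binds NF-Y, and the CHR element TTTGAA, through which the DREAM complex holds such genes down in resting cells. The 4 promoters below are shown because they are those of the higher cyclin and mitosis genes that held both motifs in the RefSeq window. They run from 150 bases before to 20 after the start in GRCr8: Plk1 at chr1:186147508-186147677 (plus strand), Cdc20 at chr5:137255780-137255949 (minus), Cdk1 at chr20:19265143-19265312 (plus) and Pttg1 at chr10:28406307-28406476 (minus). Capitals mark CCAAT and TTTGAA on either strand, so that ATTGG and TTCAAA are the same motifs read from the other strand.
Plk1 promoter: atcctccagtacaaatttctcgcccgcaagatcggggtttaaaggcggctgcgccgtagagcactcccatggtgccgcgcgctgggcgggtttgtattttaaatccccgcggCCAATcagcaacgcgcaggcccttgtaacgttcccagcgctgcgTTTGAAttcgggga
Cdc20 promoter: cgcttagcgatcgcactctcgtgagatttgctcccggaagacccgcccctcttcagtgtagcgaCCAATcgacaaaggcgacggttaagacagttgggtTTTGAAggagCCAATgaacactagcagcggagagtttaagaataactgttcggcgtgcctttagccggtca
Cdk1 promoter: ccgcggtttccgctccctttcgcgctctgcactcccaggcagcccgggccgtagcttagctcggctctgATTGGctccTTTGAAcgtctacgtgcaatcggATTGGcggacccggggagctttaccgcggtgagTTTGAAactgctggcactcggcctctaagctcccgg
Pttg1 promoter: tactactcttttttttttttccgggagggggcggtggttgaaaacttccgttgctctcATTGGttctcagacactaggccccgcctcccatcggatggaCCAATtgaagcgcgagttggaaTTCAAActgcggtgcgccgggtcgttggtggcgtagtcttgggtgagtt
Cdc20, Cdk1 and Pttg1 each held 2 CCAAT boxes and Plk1 held 1. Of the 10 higher genes of the cyclin and mitosis lists, 7 had a window in the table; 5 held CCAAT, 4 held TTTGAA and 4 held both. Of all 22 measured genes of these lists, 17 had a window, of which 12 held CCAAT (70.6%), 9 TTTGAA (52.9%) and 7 both (41.2%), so members that were not higher held the motifs too. Over the windows of all 2646 named genes with a promoter, 37.0% held CCAAT, 11% TTTGAA and 4.38% both, and over all 33469 windows the shares were 37.5%, 18.3% and 7.41%. Among all 133 higher genes with a window, 10.5% held both motifs, and among the 346 lower genes 3.76%. These shares describe letters in the windows and were not tested.

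Enzymes that make nucleotides and polyamines, a group put together after the values were seen and so no support for its own direction, also stood mostly above the pool. Of 20 measured, 7 were at least 2-fold higher and 1 was lower, with a median of 0.89. The shares of all named genes were 5.16% higher and 13.7% lower. Dhodh (2.47 and 1.79) and Umps (1.35 and 1.93) act in the making of pyrimidines. Atic, which closes the purine ring, gave 1.98 and 1.96, and Aprt, which salvages adenine, gave 1.54 and 1.65. Odc1, the first enzyme of polyamine synthesis, gave 1.28 and 1.79, while the next enzymes of that pathway, Amd1 (0.28 and 0.41) and Srm (0.20 and 0.34), lay near the pool. Sat1, which breaks polyamines down, gave 2.11 and 1.80. The exception was Gda, the guanine deaminase, at -3.42 and -3.14.

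Collagens and other proteins of the extracellular matrix included Dcn and Col1a2, the named genes with the lowest mean ratios. Of 14 measured collagens and collagen-processing genes, 9 (64.3%) were at least 2-fold lower and none higher, with a median of -2.25. Of 18 matrix glycoproteins and proteoglycans, 13 (72.2%) were lower and none higher, with a median of -2.56. The shares of all named genes were 13.7% lower and 5.16% higher. Dcn, which encodes decorin, a proteoglycan that coats collagen fibrils, was the lowest named gene at -8.72 and -10.48, against -8.26 and -9.32 in JA and -8.37 and -8.84 in JB. Its 2 clones stood at -10.99 and -8.21, so the size of the difference varied between probes but not its direction. Col1a2 and Col1a1, the chains of type I collagen, the main collagen of connective tissue, differed in size: Col1a2 gave -9.08 and -9.0 and Col1a1 gave -4.38 and -4.64. Col3a1, the chain of type III collagen, gave -5.62 and -5.15. Plod2, which hydroxylates collagen lysines for cross-links, gave -4.52 and -4.78. Srpx, a secreted sushi-repeat protein, gave -6.02 and -7.14. Ecm1, a secreted matrix protein of skin and other epithelia, gave -4.89 and -4.55. Eln, elastin, gave -3.30 and -3.34.

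The matrix genes did not all stand low. Fn1, fibronectin, gave -0.12 and -0.04, and the type VI collagen chain Col6a2 gave 0.74 and 0.94. Tgfbi, an adhesion protein induced by TGF-beta, gave 0.69 and 1.00, and P4ha1, a prolyl hydroxylase of collagen that responds to low oxygen, gave 0.84 and 0.94. None of these 4 was at least 2-fold from the pool on both arrays. The members that stood low therefore include fibril-forming collagens, elastin and the proteoglycans around them, and the list's median does not describe every member.

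**Figure D3:**
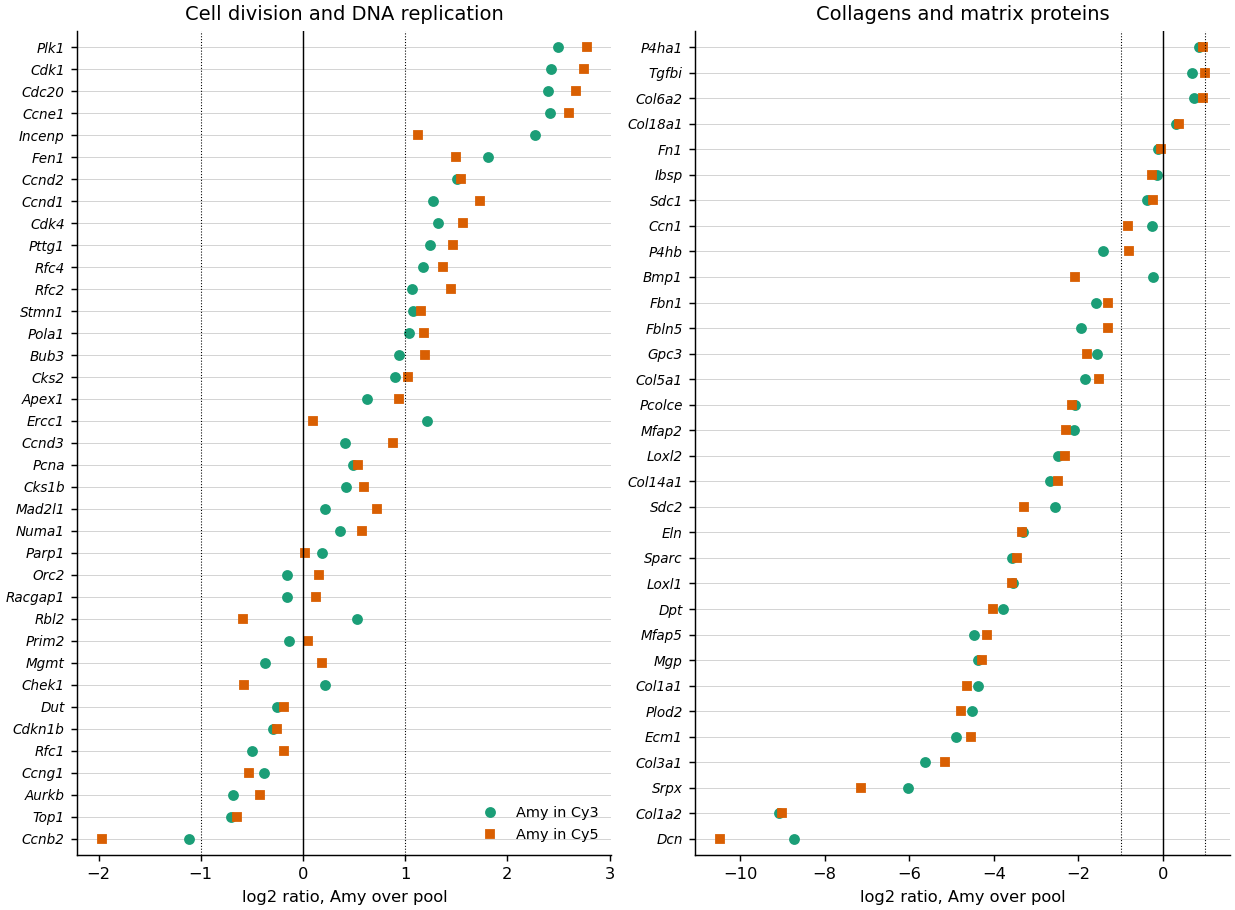
Log2 ratios of Amy over the normal pool for every measured gene of the lists of cyclins, mitosis and DNA replication (left) and of the lists of collagens and matrix proteins (right); circles are the array with Amy in Cy3, squares the array with Amy in Cy5, and dotted lines mark a 2-fold difference. On the left Plk1 tops the group at 2.49 and 2.78 and Ccnb2 ends it at -1.11 and -1.97; on the right most genes lie left of the lower dotted line, down to Dcn.

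Many markers of connective tissue and of other cell types also stood low. Of 9 genes listed as markers of fibroblasts and pericytes, 7 (77.8%) were at least 2-fold lower and none higher, with a median of -2.60. The shares of all named genes were 13.7% lower and 5.16% higher. All 7 measured genes of the narrower set that defines fibroblasts (Dcn, Col1a1, Col1a2, Col3a1, Sparc, Pdgfra and Thy1) were lower, from -9.60 in Dcn to -1.82 in Thy1. All of this set but Pdgfra and Thy1 are also on the collagen and matrix lists, so it is not a separate observation. Sparc, a matrix-binding glycoprotein, gave -3.58 and -3.46. Pdgfra, the receptor that marks fibroblasts, gave -2.92 and -3.31, but its 2 clones stood at -0.96 and -5.27. Notch3, which marks pericytes, gave -0.57 and -0.38, and Tcf21 gave -0.20 and -0.96. In RNA from whole cultures, fewer cells of a type and less of its RNA per cell cannot be told apart, and the part of these markers in the matrix ratios was not tested.

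Muscle genes did not stand together. Of 14 measured, 5 (35.7%) were at least 2-fold lower and none higher, against 13.7% and 5.16% of all named genes. All 3 defining markers measured were lower: Des, desmin, gave -5.16 and -4.65, the fast muscle light chain Myl11 gave -5.45 and -4.92, and Myl1 gave -2.35 and -2.82. Other sarcomere genes lay near the pool, such as Tnni1 (-0.03 and -0.09) and Myh3 (-0.52 and -0.07), as did Myh10, a myosin of non-muscle cells (0.20 and 0.18). Among 11 further genes of the contractile apparatus, gathered after the values were seen, 7 were lower, including the sarcomere genes Nebl (-5.42 and -5.17) and Myoz2 (-4.71 and -4.76) and the calcium pump regulator Pln (-3.15 and -4.38).

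Of 4 measured endothelial markers, 3 (75%) were lower, against 13.7% of all named genes. The VEGF receptor Kdr gave -2.56 and -2.74, the receptor Tie1 gave -1.15 and -1.26 and the sialomucin Emcn gave -1.08 and -1.76, while Ace, an enzyme of other cells too, gave -0.10 and -0.12. In a group of 13 further endothelial genes chosen after the values were seen, 10 were lower, with a median of -3.44. The caveola protein Cavin2 gave -5.15 and -5.49, the surface lectin Cd93 gave -5.34 and -5.10, the water channel Aqp1 gave -4.77 and -4.61 and the transcription factor Sox18 gave -3.46 and -3.60. Sox17 (-0.36 and -0.63) and Esm1 (-0.25 and 0.10) did not stand with them. Hba-a2, an alpha globin of red cells, gave -4.93 and -4.66, but the other measured genes of the red cell group did not stand with it. Bpgm was higher at 2.43 and 1.84, while Slc4a1 (0.57 and 0.97) and Alas2 (-0.28 and -0.93) stayed within 2-fold. That group was also chosen after the values were seen.

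Leukocyte genes formed a low set and a set near the pool. Of 14 measured, 8 (57.1%) were lower and none higher, against 13.7% and 5.16% of all named genes. The class II antigen-presenting genes RT1-Ba (-5.39 and -5.49) and RT1-Db1 (-5.03 and -5.68) and the chain that escorts them, Cd74 (-4.45 and -4.13), were lowest. Csf1r, the growth factor receptor of macrophages, gave -3.78 and -3.53, Cd4 gave -3.67 and -3.99, lysozyme Lyz2 gave -2.52 and -2.58 and the complement gene C1qc gave -2.09 and -2.36. Most of these are genes of macrophages and antigen-presenting cells. Lcp2 was lower too, at -1.37 and -1.05, and the split of the list did not follow cell type throughout. In contrast, Tyrobp, an adaptor of myeloid cells, gave 0.46 and 0.62, the macrophage receptor Mrc1 gave 0.33 and 0.23, and the T-cell genes Cd3e (-0.40 and -0.56) and Lck (-0.13 and -0.37) were within 2-fold. Of the 8 defining leukocyte markers measured, 5 were lower, and values ran from -5.44 to 0.54. As these are ratios, they do not show whether a marker was present in either culture.

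Insulin-like growth factors and their binding proteins were lower in Amy, and the receptor that clears Igf2 was higher. Of 9 measured genes of the system, 5 (55.6%) were at least 2-fold lower and 1 (11.1%) was higher, with a median of -2.59. The shares of all named genes were 13.7% and 5.16%. The ligands Igf2 (-3.68 and -3.93) and Igf1 (-2.79 and -2.38) stood low with the binding proteins Igfbp6 (-6.0 and -6.26), Igfbp4 (-3.69 and -4.74) and Igfbp5 (-2.83 and -2.38). Igfbp3 (-0.18 and 0.03) and Igfbp2 (0.54 and 0.86) did not stand with them. Igf2r gave 1.72 and 1.82. Igfbp6, Igfbp4 and Igfbp5 are also on the list of fibroblast and pericyte markers, so the groups are not independent.

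Among 22 growth factors and receptors, 8 (36.4%) were lower and 1 (4.55%) was higher, against 13.7% and 5.16% of all named genes. Vegfa, the endothelial growth factor, was the higher one at 1.62 and 1.68, against -2.56 and -2.74 for its receptor Kdr and -1.32 and -1.52 for the co-receptor Nrp1. Mdk, midkine, a heparin-binding growth factor induced by retinoic acid, gave -6.60 and -6.41. The related receptor kinases Axl (-3.09 and -3.11) and Mertk (-1.89 and -1.68) were both lower, as was Egf (-3.10 and -2.71). Erbb2 gave 0.39 and 0.44, Ddr1 gave -0.52 and -0.35 and Fgfr2 gave -0.33 and -0.09, so these receptor kinases lay within 2-fold of the pool.

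In the Wnt and retinoid lists, single genes stood far below the core mediators. Sfrp2, a secreted inhibitor of Wnt, gave -5.43 and -5.44, while the Wnt mediator Ctnnb1 gave 0.60 and 0.65 and Notch1 gave -0.49 and -0.56. Crabp2, which carries retinoic acid to its receptor, gave -6.53 and -6.24, and the receptor gene Rara gave -0.05 and 0.06. Of 15 retinoid and steroid genes, 4 (26.7%) were lower and none higher. In the TGF-beta and BMP list, 2 of 21 (9.52%) were higher and 3 (14.3%) lower, against 5.16% and 13.7% of all named genes. Id3, a target of BMP signals, gave 2.10 on both arrays. Fst, follistatin, which traps activins, gave 2.54 and 2.66, but its 2 clones stood at 5.85 and -0.64, and Bmp6, at -1.54 and -1.96, had clones at -4.68 and 1.17. No direction is therefore given for Fst or Bmp6. The mediators Smad2 (0.64 and 0.31), Smad3 (0.44 and 0.47) and Smad4 (-0.25 and -0.57) lay within 2-fold. Nbl1, a BMP antagonist outside these lists, gave -5.71 and -5.56.

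Genes of glycolysis and of the response to low oxygen stood on both sides. Of 26 measured, 8 (30.8%) were at least 2-fold higher and 4 (15.4%) lower, with a median of -0.01. The shares of all named genes were 5.16% and 13.7%, so the lower share was near that of all genes. Hif1a, the oxygen-regulated subunit of the hypoxia factor, gave 3.01 and 2.56. The glycolytic enzymes Eno1 (1.67 and 1.93), Gpi (1.04 and 1.48) and Ldha (1.14 and 1.29) were higher, as was Vegfa. Others stayed within 2-fold: Pfkl (0.46 and 0.51), Aldoa (0.23 and 0.29), Ldhb (-0.32 and -0.24) and Aldoc (-0.73 and -0.58). Some other genes known to respond to low oxygen were lower or near the pool. Bnip3, which takes part in the removal of mitochondria, gave -4.37 and -4.60, and Pdk1 gave -0.11 and -0.02. P4ha1 stood above 0 without reaching 2-fold, at 0.84 and 0.94. Pklr, the pyruvate kinase of liver and red cells, gave -2.39 and -2.10, and Pdk4, which blocks entry of pyruvate into the citric acid cycle, gave -2.13 and -1.36. Pdha1, a subunit of the enzyme that this kinase blocks, gave 1.15 and 1.05. Akr1b1, aldose reductase, gave 3.34 and 3.39, but its clones stood at 5.96 and 0.78. Slc5a2, a sodium-coupled glucose transporter known from kidney, gave 1.86 and 1.94, and the fructose transporter Slc2a5 gave 1.33 and 1.01.

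In fatty acid uptake and oxidation, none of 25 measured genes was higher and 5 (20%) were lower, with a median of -0.45. The shares of all named genes were 5.16% higher and 13.7% lower. Cd36, a receptor that takes up fatty acids and lipoproteins, gave -7.10 and -8.94, and Lpl, the lipase that frees fatty acids from lipoproteins, gave -3.12 and -3.34. Both belong to uptake. The enzymes of oxidation were closer to the pool, with Acadvl at -1.62 and -1.45, Eci1 at -1.48 and -1.19 and Cpt1b at -1.13 and -1.14. In cholesterol and fatty acid synthesis, Dhcr7 was higher (1.16 and 1.46), while Elovl6 (-1.27 and -1.59) and Me1 (-1.31 and -1.44) were lower.

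Redox genes also split. Of 28 genes of glutathione and redox defence, 3 (10.7%) were higher and 6 (21.4%) lower, against 5.16% and 13.7% of all named genes. The enzymes that make and restore glutathione, Gss (1.94 and 2.27) and Gsr (1.80 on both arrays), and the metallothionein Mt2A (2.18 and 2.74) were higher. The secreted superoxide dismutase Sod3 (-3.71 and -3.70), the glutathione transferases Gstm7 (-2.63 and -2.37) and Gstm2 (-2.09 and -2.36) and catalase, Cat (-1.38 and -1.09), were lower. In the iron and heme list 1 of 12 (8.33%) was higher and 4 (33.3%) were lower. The ferroxidase Heph gave 2.10 and 1.47 and the iron exporter it works with, Slc40a1, gave -2.06 and -2.18. The heme synthesis enzymes Alas1 (-1.70 and -1.72) and Urod (-1.5 and -1.38) were both lower. Among 11 xenobiotic and aldehyde enzymes, 2 (18.2%) were higher and 4 (36.4%) lower, against 5.16% and 13.7% of all named genes, with a median of 0.07. Akr1c14 led the lower side at -2.86 and -2.81. The higher ones were Akr1a1 (1.01 and 1.25) and Akr1b1, whose clones differed.

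Stress, growth arrest and death genes gave members in both directions. In the integrated stress response list, 4 of 11 (36.4%) were lower and none higher, with a median of -0.74. Atf4, its central factor, gave 0.73 and 0.65, while its partners and targets Ddit3 (-1.46 and -1.14), Atf5 (-1.38 and -1.16) and Aars1 (-1.63 and -1.99) were lower. Other genes of the list did not stand with these 3, among them Ppp1r15a (0.69 and 1.14), Chac1 (-0.32 and 0.07) and Ddit4 (-0.05 and 0.10). Eif2s1, the initiation factor subunit whose phosphorylation starts the response, gave -2.63 and -2.68. Of 13 p53-linked and growth arrest genes, 2 (15.4%) were higher and 5 (38.5%) lower, against 5.16% and 13.7% of all named genes. The lower ones included Sesn1 (-4.02 and -3.85), Ndrg2 (-3.81 and -3.53), Gas7 (-3.26 and -2.97) and the death receptor Fas (-2.05 and -1.77). The 2 higher ones were Ndrg1 (1.94 and 2.09, with clones at 0.40 and 3.63) and Plk2 (1.09 and 1.34). Among 15 apoptosis genes 2 (13.3%) were higher and 3 (20%) lower, and Aifm1, the mitochondrial apoptosis-inducing factor, led the higher side at 1.89 and 2.03. Of 25 heat shock and chaperone genes only Ppia, cyclophilin A, was at least 2-fold from the pool, at 1.42 and 1.71.

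Immediate early genes, which cells switch on within minutes of a signal, had a median of 0.52. Of 15 measured, 4 (26.7%) were higher, against 5.16% of all named genes, and 1 was lower. Ier3, a stress-induced survival gene, gave 1.80 and 2.28, and Jun, a subunit of the transcription factor AP-1, gave 1.21 and 1.08. Ier5 gave 1.02 and 1.11. Dusp1, the phosphatase that ends MAP kinase signals, was the lower one at -1.62 and -1.33, while its relative Dusp5 gave 0.96 and 1.03.

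Of 27 inflammation and NF-kB genes, none was at least 2-fold higher on both arrays and 4 (14.8%) were lower, a share near the 13.7% of all named genes. Bcl10, an adaptor that carries receptor signals to NF-kB, gave -4.97 and -4.84, and Il33, an alarm cytokine of barrier tissues, gave -3.85 and -3.83. Il6st, the shared receptor chain of the interleukin-6 family, gave -1.21 and -1.19. Of 20 interferon and antigen presentation genes, none was higher and 4 (20%) were lower. Psmb8, a subunit of the immunoproteasome, gave -4.47 and -1.32, and Irf1 gave -1.15 and -2.47. Ifit2 gave -2.92 and -1.67. The 2 arrays differed by more than 1 for each of these 3 interferon genes, so their sizes are uncertain, although the arrays had 1 sign.

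Few markers of esophageal epithelium were measured, and they did not move together. Of 9 genes set as markers of squamous epithelium 2 were measured: Lgals7, galectin-7 of stratified epithelia, gave -4.64 and -4.69, with its 3 clones from -5.89 to -3.92, and Cstb, a protease inhibitor of the cornified layer, gave -0.16 on both arrays. Anxa1, an annexin abundant in squamous cells, gave 1.56 and 1.68. Among columnar and gastrointestinal genes 1 of 9 (11.1%) was higher, Tspan8, and 4 (44.4%) were lower, against 5.16% and 13.7% of all named genes. The lower ones were clusterin (Clu, -2.96 and -3.20), Apoa4 (-1.65 and -1.25), the peptidase Anpep (-1.36 and -1.46, clones from -3.73 to 0.35) and the protease Ctse (-1.18 and -1.17). The simple-epithelium keratins Krt8 (0.14 and 0.38) and Krt7 (-1.02 and -0.95) were not at least 2-fold from the pool on both arrays. Cdh3, P-cadherin of basal epithelial cells, gave 2.03 and 2.17, and Cdh13, a cadherin with a lipid anchor, gave 1.5 and 1.65. Cd24, a surface glycoprotein, gave -2.69 and -2.55, and the gap junction gene Gjb1 gave -1.57 and -2.40. The labelled tissue was thus not settled by these markers.

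Proteases and their inhibitors held 7 lower genes (36.8%) and no higher one among 19, against 13.7% lower and 5.16% higher of all named genes. Reck, a membrane inhibitor of matrix metalloproteinases, gave -3.97 and -4.06. The cathepsins Ctsk (-3.58 and -3.75), Ctsl (-2.43 and -2.74) and Ctsd (-1.95 and -1.55) were lower, while Ctsb (-0.18 and 0.27) and Ctsh (0.78 and 0.90) were not. The metalloproteinases Mmp23 (-2.23 and -2.13) and Mmp11 (-1.33 and -1.35) were lower, and Mmp13 gave -0.33 and -0.15. The inhibitors Timp2 (0.78 and 0.95) and Timp3 (0.69 and 0.66) stood above 0 without reaching 2-fold.

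The cytoskeleton gave members in both directions. Of 44 genes 4 (9.09%) were higher and 5 (11.4%) lower. Msn, moesin, which ties actin to the membrane, gave 2.35 and 2.40, and Tmsb10, which binds actin monomers, gave 2.13 and 2.33. Gsn, gelsolin, which cuts actin filaments, gave -4.24 and -3.86. Cfl2, the muscle cofilin, gave -2.86 and -2.82, but 1 of its clones stood at -0.12. Actb, often taken as a reference gene, gave 0.69 and 0.73. Of 45 genes of MAP kinase and PI3 kinase signalling and of phosphatases, 2 were higher, Map2k1 (1.46 and 1.51) and Src (1.39 and 1.02), and 4 were lower, led by Rcan2, a regulator of calcineurin, at -6.46 and -5.92. Of 70 small GTPases, G protein subunits and genes named as their regulators or partners, 5 (7.14%) were higher and 9 (12.9%) lower, near the 5.16% and 13.7% of all named genes. Ran, the GTPase of nuclear transport, gave 1.57 and 1.99, and Rab5b gave -3.09 and -3.45. Rhoj, of endothelial cells, gave -3.31 and -3.56, with its clones at -5.97 and -0.90.

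RNA processing and nucleolar genes leaned higher, with 4 of 28 (14.3%) at least 2-fold higher, 1 (3.57%) lower and a median of 0.43. The shares of all named genes were 5.16% and 13.7%. The helicase Ddx39a gave 2.09 and 2.38, the RNA polymerase subunit Polr2c gave 1.74 on both arrays, and nucleophosmin, Npm1, gave 1.15 and 1.37. The large housekeeping complexes stood near the pool. None of 20 proteasome genes was at least 2-fold different on both arrays, and 1 of 43 respiratory chain and ATP synthase genes was, Ndufs4 at -1.07 and -1.15. Of 30 ribosomal protein genes 2 were lower, Rpl3l, the muscle form (-1.35 and -1.30), and Rpl7 (-1.46 and -1.45), where 1 clone at -3.49 stood apart from 2 at -0.54 and -0.34. Of 40 ubiquitin conjugation genes 1 was higher, Ube2j1 (2.11 and 1.15), and 3 lower. Translation factors and tRNA ligases gave 2 (7.14%) higher and 3 (10.7%) lower of 28, near the shares of all named genes.

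Of 61 solute carriers 7 (11.5%) were higher and 6 (9.84%) lower, against 5.16% and 13.7% of all named genes. The lactate and pyruvate carrier Slc16a1 gave 1.68 and 1.19, the choline transporter Slc44a1 gave 1.56 and 1.91, and the thiamine transporter Slc19a2 gave -2.0 and -1.64. Among 19 ABC transporters and pumps, the sodium pump subunit Atp1b3 (2.08 and 1.92) and Abcc5 (1.38 and 1.30) were higher and the peroxisomal Abcd3 (-1.94 and -1.55) was lower. Of 14 ion channels 3 (21.4%) were lower, led by the potassium channel Kcna5 at -2.08 and -1.42. None of the 5 neurotransmitter receptors measured passed the limit on both arrays; Adra2b, an adrenergic receptor, came nearest at -1.88 and -1.0. Of 43 vesicle trafficking genes 3 were higher and none lower, Ap2a2, of the clathrin adaptor at the plasma membrane, being the highest at 1.41 and 1.46. The calcium-binding S100a6 gave 1.83 and 2.21, while S100a13 gave -1.62 and -1.20.

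**Figure D4:**
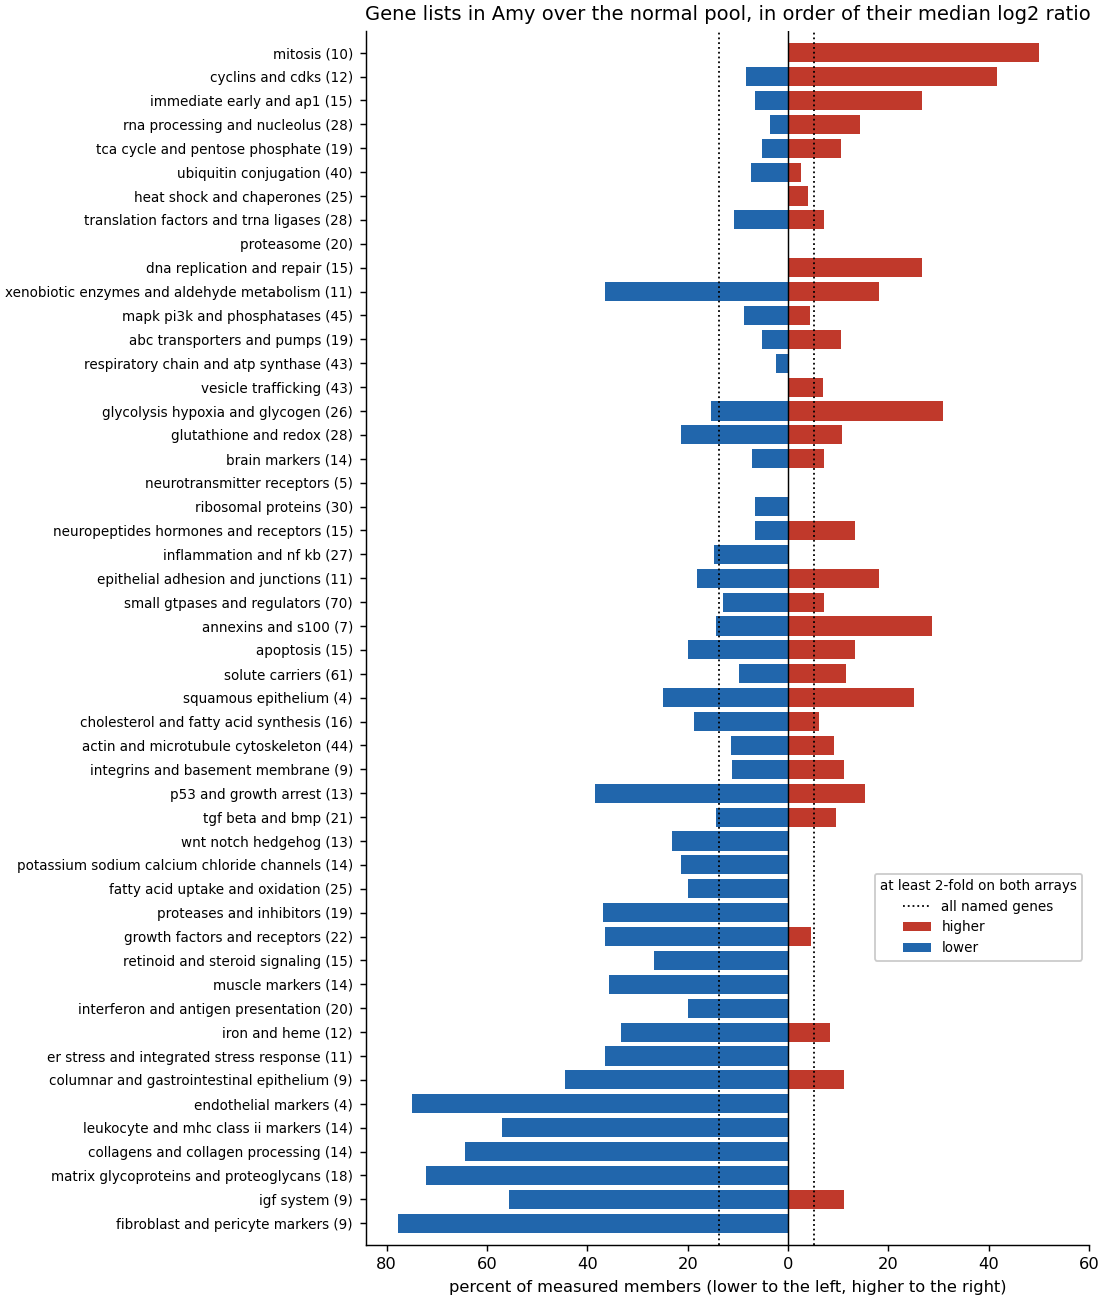
Share of the measured members of each of the 50 gene lists that stood at least 2-fold higher (right) or lower (left) in Amy on both arrays, in percent, with the number of measured members in parentheses and the lists in order of their median log2 ratio. Dotted lines mark the shares over all named genes, 5.16% higher and 13.7% lower. Mitosis reaches 50% higher and fibroblast and pericyte markers 77.8% lower, and lists of under 10 genes move by large steps per gene. The lists were chosen with earlier results of these data known, so their shares are not independent of the values.

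Over all 50 lists, 972 named genes were covered, of which 74 (7.61%) were higher and 155 (15.9%) lower, against 5.16% and 13.7% of all named genes. The 2-fold limit cut through close values. Pcgf6 (1.84 and 1.00) and Tfdp1 (1.11 and 1.01) lay just inside it, and Irf8 (1.00 on both arrays) and nucleolin, Ncl (1.00 and 1.32), lay just outside by their unrounded values. On the lower side, Gch1 (-1.15 and -1.0) was counted and Atp6v1c2 (-1.01 and -1.0) was not. A further 335 genes passed the limit on 1 array only. In 5 genes both arrays passed it with opposite signs: Apoa2 gave 2.64 and -1.54, Prrg4 1.31 and -2.43, Actn4 -2.65 and 1.07, Gc 2.44 and -1.20, and Gad1 2.29 and -1.34. In Actn4, the opposite signs came from 1 of 3 clones, which gave -7.24 and 3.15. Of 127 changed genes with several clones, all clones passed alike in 59, and a clone of the other sign was found in 12. Among these, Soat1 (-2.10 and -2.25) had clones at -5.56 and 1.21, so its direction is not settled either.

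Amy was then set against the other tumor lines. The lines share the pool, so their ratios to it are given side by side and no likeness between them is drawn from them. Of the 163 genes higher in Amy, all 4 arrays of JA and JB stood on the same side in 147 and at least 2-fold in 94. For the 432 lower genes these counts were 407 and 282. Over all 3158 named genes, JA was at least 2-fold higher on both its arrays in 266 and lower in 451, and JB in 207 and 395. The share of all named genes with all 4 arrays on 1 side was not counted. The difference between Amy and the mean of JA and JB does not contain the pool's level and was tested with limma over 7180 features (the named genes and 4022 unnamed clones), with each line as 1 value. Its spread comes from JA and JB alone, and Amy was assumed to vary like them. After Benjamini-Hochberg adjustment 0 features (0.0%) passed 0.05 in limma, the smallest adjusted p being 0.992, and 249 (3.47%) had an unadjusted p under 0.05. In simulated data of this design, differences of 1 on the log2 scale were recovered at 12% and of 2 at 94%. Differences near 2-fold were thus mostly not detectable with 3 lines. The simulated spreads came from variances already pulled toward a common value, so these rates can be too high for the real data. In the real data, differences of 2.96 in Stat3 and -2.35 in Nsg1 were not called. The lack of calls therefore does not show that differences of 4-fold between the lines are absent.

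Without a test to choose by, genes were described in which Amy stood at least 2-fold from both JA and JB in both dye orientations: 6 genes above (0.19% of named genes) and 9 below (0.285%). Each had an adjusted p of 0.9925 in limma, so none of these differences passed. Stat3, the transcription factor of interleukin-6 signals, gave -0.83 and -0.99 in Amy, -2.28 and -2.71 in JA and -5.11 and -5.40 in JB, so the 3 lines stood apart in steps. Its difference was 2.96 with a standard error of 1.25, and 1.58 against JA alone. Lgals7 was less low in Amy (-4.64 and -4.69) than in JA (-6.21 and -6.47) or JB (-6.41 and -6.53), a difference of 1.74 with a standard error of 0.27, or 1.04 when the arrays were scaled to a common spread. Bcl10 was likewise less low, at -4.97 and -4.84 in Amy, -6.22 and -6.27 in JA and -6.41 and -6.63 in JB. Its difference of 1.48 became 0.76, under the 2-fold limit, when the arrays were scaled to a common spread. Abcc5, an exporter of cyclic nucleotides, gave 1.38 and 1.30 in Amy, against -0.43 and -0.35 in JA and 0.16 and -0.03 in JB. Aopep, an aminopeptidase, gave 1.13 and 1.38 in Amy, -0.30 and -0.05 in JA and 0.03 and -0.03 in JB. Flcn, folliculin, gave 0.11 and -0.13 in Amy and between -1.47 and -0.98 in JA and JB.

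Below both other lines, Slc5a2 gave 1.86 and 1.94 in Amy against 2.89 and 3.17 in JA and 3.59 and 3.74 in JB, so it was above the pool in every line. Rfc4 gave 1.17 and 1.37 in Amy, 2.75 and 2.58 in JA and 2.35 and 2.43 in JB, and Gng2, a G protein subunit, gave 0.99 and 1.10 in Amy and 2.09 to 2.61 in JA and JB. These genes were on the higher side in all lines, with Amy the least. Gbe1, the glycogen branching enzyme, gave -0.04 and -0.19 in Amy and 1.02 to 1.55 in the other lines. Tle1, a corepressor, gave -0.51 and -0.35 in Amy and 0.71 to 0.93 in the others, and Plpp5, a lipid phosphatase, gave -0.55 and -0.34 against 0.80 to 1.09. For Gbe1, Tle1 and Plpp5 Amy lay on the other side of the pool from JA and JB, near it. Timp1, the metalloproteinase inhibitor, gave -0.84 and -0.39 in Amy, 0.49 and 0.88 in JA and 0.21 and 0.81 in JB. Lsp1, an actin-binding protein of leukocytes, gave -3.01 and -2.65 in Amy and -2.01 to -1.45 in the others. Nsg1, a neuronal endosome protein, had the largest difference below, -2.35 with a standard error of 0.33, but its Amy arrays had opposite signs, 0.45 and -1.21.

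**Figure D5:**
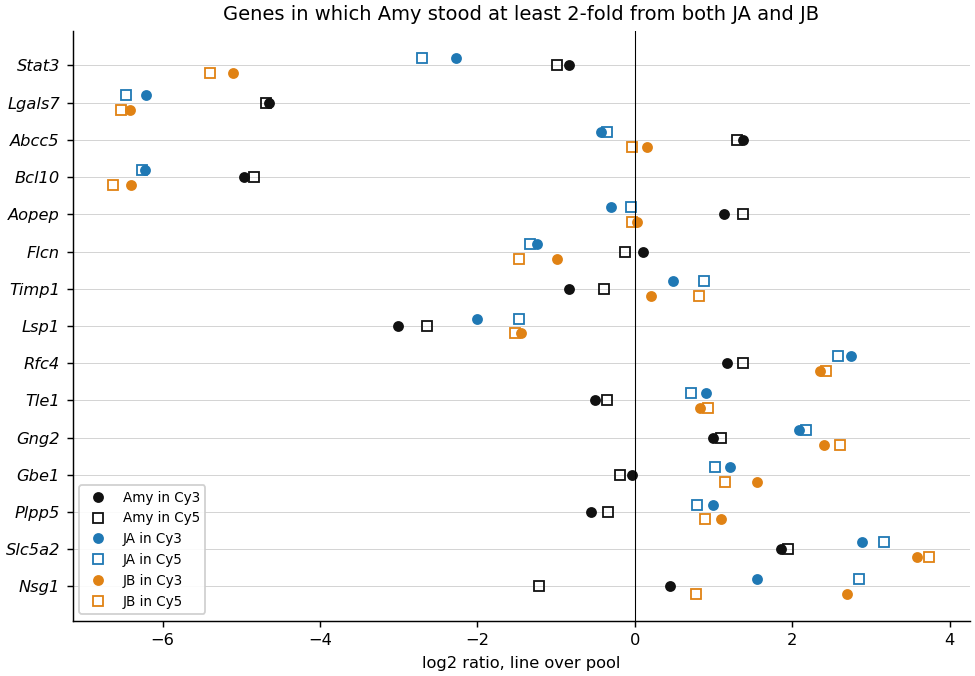
Log2 ratios of each tumor line over the normal pool in the 15 genes in which Amy stood at least 2-fold from both JA and JB in both dye orientations; black is Amy, blue JA and orange JB, with circles for the line in Cy3 and squares for the line in Cy5. In Stat3 the lines form 3 separate steps, in Abcc5 and Aopep Amy stands above the pool and the others near it, and in Nsg1 the 2 Amy arrays lie on opposite sides of 0.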

How the data were processed

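The deposited values were log ratios made by the authors, 1 for each spot of each array, and were read as log2 ratios. The scanner, the correction for background, the normalization and any filter on spots are not given in the sources used here. The log base was taken as 2 because the lowest values would exceed a scanner's range in base 10 or natural logarithms. No sign was changed, since both Amy arrays already ran in 1 direction; centring, scale and direction stay unstated. Spot medians were -0.13 on both Amy arrays. The number of arrays limits the precision.

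Of 16128 spots, 8084 carried 1 gene symbol in the platform annotation, 40 several and 8004 none; 8076 matched a RefSeq gene (GRCr8) by its gene ID, with 0 symbols updated. Spots formed 8064 clones printed in pairs. Spots of 1 symbol were averaged on each array, then the 2 arrays. No filter on low values was used. Amy minus the mean of JA and JB was tested in R 4.3.3 with limma 3.58.1 (lmFit and eBayes on line means, two-sided, Benjamini-Hochberg over 7180 features, threshold 0.05), with 1 residual degree of freedom. Per the labels, replicate numbers stand for the dye that Amy, JA or JB carried; the Cy5 minus Cy3 difference correlated between lines at 0.552, 0.5255 and 0.6134, so the numbers pair the arrays. In simulated data with 50 features per size, log2 differences of 0.5, 1, 2 and 4 were recovered at 0%, 12%, 94% and 100%, with 12 false among 115 calls. The simulated spreads were variances already pulled toward a common value, so these rates can be too high for the real data.

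The comparison, the 50 gene lists, the marker sets and the tests were chosen with earlier results of these data known. Genes named were the 15 highest and 15 lowest changed genes, up to 5 per list and direction, all members of lists of at most 5, those apart from JA and JB (up to 10 a direction), the 3 nearest the limit on either side, the 5 of opposite sign, the 5 whose clones differed most, and those measured of a fixed set (Actb, Ccnd1, Erbb2, Krt8). Lists of large families were taken by the start of the gene symbol, less 5 genes of other function (Glrx, Htra3, Grina, Raly and Usp6nl) taken out after their values were seen. Further members, and 4 groups (nucleotide and polyamine synthesis, further contractile, further endothelial, red cell), were added after their values were seen. Counts, medians and shares of the lists are therefore not independent of the values and describe the members only. The red cell group had 1 higher and 1 lower of 4 measured genes. Promoters came from the RefSeq table (GRCr8); 2646 of the 3158 genes matched by symbol or gene ID. Alternatives were other centring, scaling, clone summaries, filters, fold limits, single arrays, the replicate block and other variance models. Python 3.11.15 with matplotlib 3.10.9 drew the figures.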

Additional observations from a re-analysis of the deposited data

How the results depend on the processing

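The counts of 163 higher and 432 lower genes moved with the fold limit: 418 and 714 at 1.5-fold, and 22 and 173 at 4-fold. With 1 Amy array alone they were 232 to 246 higher and 528 to 529 lower. Centring the arrays on their median, which moved the median of all genes by 0.13, gave 221 and 383. Scaling, clone medians, and leaving out clones or genes with disagreeing values gave 160 to 202 higher and 403 to 476 lower. List medians near 0, among them those of glycolysis and hypoxia, apoptosis, inflammation, proteasome and ribosomal proteins, changed sign under centring or with 1 array alone. Centring raised every value alike, by 0.13, since the spot medians were -0.13 on both Amy arrays. The cause of the changes with 1 array alone was not tested. No named gene counted as changed turned its direction under these alternatives. Most of them could hardly turn one, since a changed gene stood at least 2-fold with 1 sign on both arrays. Single clones were not among the alternatives, and 12 changed genes had a clone of the other sign.

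In limma, the difference between Amy and the other lines gave 0 called features under every alternative run. With the replicate block (dye orientation, line as a random block) it gave 0 called, a smallest adjusted p of 0.122 and 497 features at an unadjusted p under 0.05; the others gave 204 to 373. Leaving out JA or JB left no residual degrees of freedom and gave values only. Stat3 was 4.35 against JB alone and 1.58 against JA alone, and with scaled arrays Lgals7 was 1.04 and Bcl10 0.76. Without replicate 1 or 2 Nsg1 was -3.03 or -1.67. Signal over background was not used here, so the lowest ratios have unknown precision.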

Other observations

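The 4022 clones without a single gene name were described by the same rule. Of these, 194 (4.82%) were at least 2-fold higher and 432 (10.7%) at least 2-fold lower on both arrays, with a median of -0.18. The highest stood at 4.30 with Amy in Cy3 and 3.76 with Amy in Cy5, and the lowest at -8.95 and -9.98. In 3 of them the mean lay below -8 and in 11 below -6, against 8 named genes below -6.

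Cxxc5, a zinc finger protein, was singled out after its values were seen. Its Amy arrays gave -3.35 and -7.29, a Cy5 minus Cy3 difference of -3.94 within 1 sign, while JA gave -3.76 and -3.84 and JB -2.41 and -2.36.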
